A study of Mus musculus with 6 samples.

Results

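The collagen genes that build the sheaths of peripheral nerve were compared between Srebf-1c KO mice and wild-type littermates, all 10 months old, in RNA from whole sciatic nerve. The members are the genes whose symbol has the form of a collagen chain (Col, a type number, a and a chain number) and that carry a probe set with a single gene symbol. They were found for 44 of the 22180 genes tested. Srebf-1c is a transcription factor made from Srebf1 that is known for driving fatty acid synthesis. RNA of each sample was hybridised to its own Affymetrix whole-transcript array, with 3 arrays of each genotype, and values are log2 of the deposited intensity. Neither the kind of KO allele nor the number of mice is stated in the labels, so every p-value refers to the spread among the samples at hand, part of which may be technical. All groups share the age of 10 months and the tissue, and the number of arrays limits the precision.

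Collagens are proteins of 3 chains wound into a helix, and each type is built from its own set of chains. In nerve, fibrillar types I, III and V form the fibres of the epineurium and endoneurium, type IV forms the network of the basal lamina around every Schwann cell and perineurial cell, and type VI forms beaded filaments between fibres and basal lamina. Transmembrane collagens sit in cell membranes, fibril-associated collagens decorate fibres, and the multiplexins XV and XVIII lie at basement membranes. The 44 genes comprised 11 fibrillar, 6 basement membrane, 6 beaded and 4 transmembrane chains, with 9 fibril-associated, 2 multiplexin, 3 short-chain network and 3 other chains.

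Promoters are shown for 4 chains that the results turn on: Col1a2, for the genes highest on wild-type replicate 2; Col3a1 and Col6a1, which went together across arrays; and Col8a1, which had the smallest p. Each run is the 250 bases before the RefSeq start site of build GRCm38.p6, read 5′ to 3′ on the gene's strand. Capitals mark each run of the letters TATAAA (as in a TATA box), CCAAT and GGGCGG (as in a GC box) found on either strand. The sterol element described next was found in none of the 4.
Col1a2 (chr6:4505368-4505617, plus strand): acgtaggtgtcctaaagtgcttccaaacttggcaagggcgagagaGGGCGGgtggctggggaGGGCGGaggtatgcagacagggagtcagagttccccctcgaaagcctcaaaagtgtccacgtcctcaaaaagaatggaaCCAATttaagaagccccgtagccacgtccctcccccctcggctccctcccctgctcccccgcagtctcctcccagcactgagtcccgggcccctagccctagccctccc
Col3a1 (chr1:45311288-45311537, plus strand): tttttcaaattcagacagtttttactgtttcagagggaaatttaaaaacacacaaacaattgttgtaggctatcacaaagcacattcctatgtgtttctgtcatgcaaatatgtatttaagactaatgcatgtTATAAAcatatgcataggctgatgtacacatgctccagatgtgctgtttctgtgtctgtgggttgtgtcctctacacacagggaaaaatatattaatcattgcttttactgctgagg
Col6a1 (chr10:76726045-76726294, minus strand): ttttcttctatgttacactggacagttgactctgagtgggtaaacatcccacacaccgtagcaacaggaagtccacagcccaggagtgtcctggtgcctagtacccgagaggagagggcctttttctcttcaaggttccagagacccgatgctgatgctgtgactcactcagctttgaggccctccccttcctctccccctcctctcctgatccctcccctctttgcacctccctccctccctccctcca
Col8a1 (chr16:57754738-57754987, minus strand): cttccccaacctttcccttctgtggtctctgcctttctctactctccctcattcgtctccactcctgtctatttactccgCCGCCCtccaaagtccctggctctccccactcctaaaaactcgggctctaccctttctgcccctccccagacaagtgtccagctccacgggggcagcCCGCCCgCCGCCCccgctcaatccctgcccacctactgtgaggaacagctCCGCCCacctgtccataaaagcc

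The Col1a2 window held 1 CCAAT and 2 GGGCGG, the Col3a1 window 1 TATAAA, the Col8a1 window 4 GGGCGG, and the Col6a1 window none of these. RefSeq listed a promoter for 35 of the 44 collagen genes. TCACNCCAC, the core of the sterol regulatory element known to bind the SREBP factors, was found on either strand in 1 of these 35 windows (2.86%), that of Col17a1, against 1.04% of 27025 RefSeq promoters of any gene type. Those 27025 leave out the promoters listed on 1 chromosome of build GRCm38.p6. CACGTG, the E-box form, was found in 0 of the 35 windows and in 6.05% of all. TATAAA was found in 5 of the 35 collagen windows and in 3504 of all 27025, CCAAT in 34.3% and 34.5%, and GGGCGG in 21 of the 35 and in 32.9% of all. A match in 250 bases is a description of the letters only.

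Srebf1, the targeted gene, read 9.53, 9.55 and 9.70 in wild type against 8.11, 8.06 and 8.04 in KO, so the labels and this gene point the same way. The log2 fold change was -1.52 ± 0.11 (SE), with a limma adjusted p of 0.0497. That call was lost whenever 1 array was left out (6 of 6 times) and under 5 of the 12 other settings that kept all arrays. Schwann cell genes were bright throughout: Mbp, a myelin protein gene, read between 12.65 and 12.81, and Pmp22, another, between 13.44 and 13.67. Slc2a1, the glucose transporter that marks the perineurium, read between 11.72 and 12.15, and Dcn, a fibroblast proteoglycan gene, between 13.07 and 13.62. Neighbouring tissue differed between arrays. A score, here and below, is the mean over a list of each gene's log2 intensity minus its own mean over the 6 arrays. The adipocyte score over 13 of 14 listed markers was -0.79, -0.13 and 1.39 in wild type against -0.71, 1.24 and -0.99 in KO, so wild-type replicate 3 and KO replicate 2 stood far above the rest. Since whole nerve was measured, fewer cells of a type and less RNA per cell cannot be told apart.

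No collagen gene passed the test between the genotypes. In limma, 0 of the 44 had an adjusted p under 0.05 over all 22180 genes, where 0.00451% of all genes did (Srebf1 alone), and the smallest adjusted p of a collagen gene was 0.864. At an unadjusted p under 0.05 the count was also 0 of 44, against 5.83% of all genes. The criterion in the series text, an unadjusted p under 0.05 with at least a 1.5-fold change, was met by 0 collagen genes and by 1.19% of all genes. Genotypes did not overlap in 2 of the 44, Col4a3 and Col14a1, against 12.3% of all genes. A difference that misses the test is not shown to be absent, so the intervals are given too: the 95% interval of the log2 fold change lay wholly within 1.5-fold either way (0.58 on the log2 scale) for 30 of 44 collagen genes, or 68.2%, against 61.2% of all genes. The median log2 fold change was -0.09 over the collagen genes and -0.03 over all genes, with a lower mean in KO in 28 of 44 (63.6%) against 56.9%. Among genes brighter than the median gene these shares were 76.9% of 26 collagen genes and 63.0% of all.

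**Figure D1:**
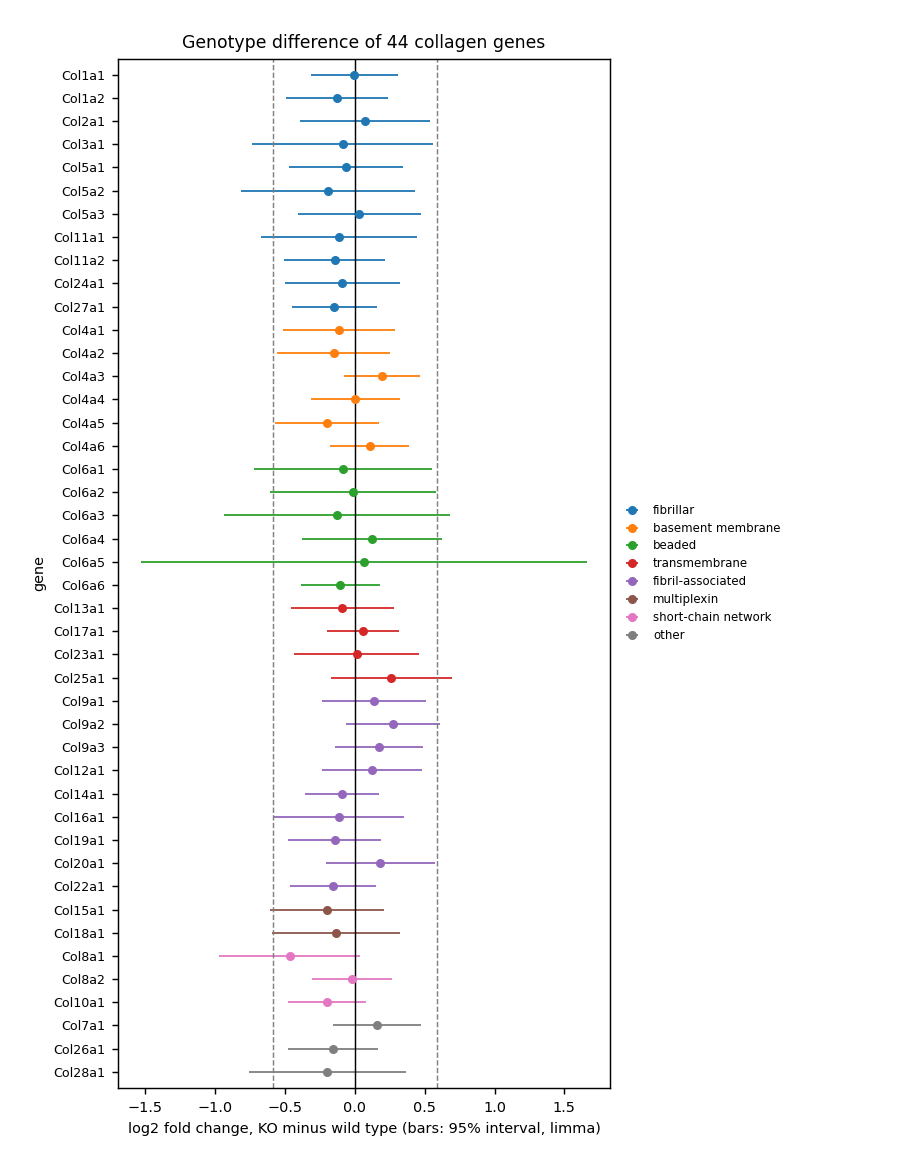
Log2 fold change of each of the 44 collagen genes, KO minus wild type, on the horizontal axis, with genes on the vertical axis and colours for class. Points are limma estimates from 3 arrays per genotype, bars are 95% intervals and dashed lines mark 1.5-fold. Every bar crosses 0, and the widest is that of Col6a5, from -1.53 to 1.66.

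The 11 fibrillar genes had a median log2 fold change of -0.09, with 9 lower and 2 higher means in KO and single values from -0.19 to 0.07. Col1a1, a chain of type I collagen, the main fibre of tendon, skin and epineurium, read 11.09, 11.38 and 11.22 in wild type against 11.10, 11.33 and 11.27 in KO. The groups covered the same range, and the log2 fold change was -0.0025 ± 0.13 (SE), with a 95% interval from -0.31 to 0.31. Its partner chain gene Col1a2 read 10.88, 11.38 and 11.04 in wild type against 10.88, 11.07 and 10.97 in KO. The groups overlapped, with KO replicate 1 just below the lowest wild-type array (10.877 against 10.882). The log2 fold change was -0.13 ± 0.16 (SE, interval -0.50 to 0.24). A dimmer probe set of Col1a2 gave 0.044.

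Col3a1, which encodes the type III collagen of pliable tissue, spread more widely. It read 9.90, 10.12 and 10.64 in wild type against 9.67, 10.58 and 10.15 in KO. High values came from wild-type replicate 3 and KO replicate 2, the arrays with the highest adipocyte scores, and low values from wild-type replicate 1 and KO replicate 1. The log2 fold change was -0.09 ± 0.27 (SE), with an interval from -0.73 to 0.56 that reaches past 1.5-fold.

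Type V chains set the diameter of type I fibres. Col5a1 read 8.81, 9.33 and 9.15 in wild type against 8.84, 9.21 and 9.03 in KO (log2 fold change -0.07 ± 0.17, SE), and its dimmer probe set gave -0.15. Col5a2 read 8.27, 9.26 and 8.38 in wild type against 8.36, 8.62 and 8.36 in KO. Wild-type replicate 2 stood above the other 5 arrays, and with it the log2 fold change was -0.19 ± 0.27 (SE), against 0.12 without it. Col5a3, a type V chain that Schwann cells make, had a log2 fold change of 0.03 ± 0.19 (SE). The minor fibrillar genes were Col11a1 at -0.11, Col24a1 at -0.09, and Col27a1 and Col11a2, which had the smallest p of the class, at -0.15 ± 0.13 (SE) and -0.15 ± 0.15 (SE). Col2a1, the cartilage collagen gene, stood at 0.07, highest on KO replicate 3 and from 7.32 to 7.53 elsewhere.

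The basement membrane genes split evenly, with 3 lower and 3 higher means in KO and a median log2 fold change of -0.06, and each of the 6 intervals lay within 1.5-fold. Col4a1 and Col4a2 encode the chains of the common type IV network, and the genes lie head to head: their 300-base RefSeq promoter windows share 78 bases. Col4a1 read 9.48, 9.99 and 9.53 in wild type against 9.52, 9.70 and 9.43 in KO (log2 fold change -0.12 ± 0.17, SE). Col4a2 read 9.03, 9.59 and 9.34 in wild type against 9.12, 9.34 and 9.04 in KO (-0.15 ± 0.17, SE). Both were highest on wild-type replicate 2, and the genotypes overlapped.

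The remaining type IV genes, whose chains form the specialised networks of kidney and some other basement membranes, include Col4a3, which read 6.98, 6.96 and 6.86 in wild type against 7.08, 7.24 and 7.07 in KO. Each KO array lay above each wild-type array, yet the difference was small, at 0.19 ± 0.12 (SE; interval -0.08 to 0.46), and missed the limma test (adjusted p = 0.877). Its neighbour Col4a4 stood at 0.0038. Col4a5 read between 6.98 and 7.44 in wild type, highest on replicate 3, and between 6.84 and 7.01 in KO, at -0.20 ± 0.16 (SE), while its neighbour Col4a6 stood at 0.11. Col4a5 and Col4a6 had estimates of opposite sign, and the 95% interval of each type IV gene crossed 0.

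Beaded filament genes varied more from array to array than those of the other 3 sheath classes. The median range over the 6 arrays was 0.95 log2 units for the 6 beaded genes, against 0.56 for fibrillar, 0.48 for basement membrane and 0.60 for transmembrane genes and 0.54 over all genes. Their median log2 fold change was -0.05, but it ran from -0.27 without KO replicate 2 to 0.18 without KO replicate 1. Col6a1, a chain present in all type VI collagen, read 9.98, 10.04 and 10.61 in wild type against 9.65, 10.57 and 10.16 in KO (-0.08 ± 0.27, SE). Col6a2, the gene of its constant partner chain, read 9.06, 9.45 and 9.53 in wild type against 8.84, 9.79 and 9.38 in KO (-0.01 ± 0.25, SE). Both genes lie next to each other in RefSeq, and in both the lowest array was KO replicate 1 and the 2 highest were wild-type replicate 3 and KO replicate 2. A dimmer probe set of Col6a1 gave a log2 fold change of the other sign, 0.027. The same arrays were lowest and highest on it, at 7.19 on KO replicate 1 and 8.35 on KO replicate 2. Wild-type replicate 3, however, stood little above wild-type replicate 2 there (7.72 against 7.64).

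Col6a3, the gene of the longest of the 3 chains, read 8.62, 8.99 and 9.41 in wild type against 8.52, 9.63 and 8.48 in KO, a log2 fold change of -0.13 ± 0.34 (SE) with an interval from -0.94 to 0.68. Without KO replicate 2 it was -0.50, and without wild-type replicate 3, KO replicate 1 or KO replicate 3 it was 0.07, 0.05 and 0.07. Col6a5, whose chain can stand in for that of Col6a3, read 5.97, 6.06 and 7.65 in wild type against 5.43, 7.91 and 6.53 in KO, the widest spread of any collagen gene. Its log2 fold change of 0.07 ± 0.68 (SE) is too imprecise to exclude a change of 1.5-fold in either direction. Of the other substitutes, Col6a4, at 0.12 ± 0.21 (SE), was highest on KO replicate 3, at 6.64 against at most 6.19 elsewhere. Col6a6, at -0.10 ± 0.12 (SE), ranged over 0.25 log2 units, with its highest value on wild-type replicate 3 and its lowest on KO replicate 1; KO replicate 2 was its highest KO array.

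**Figure D2:**
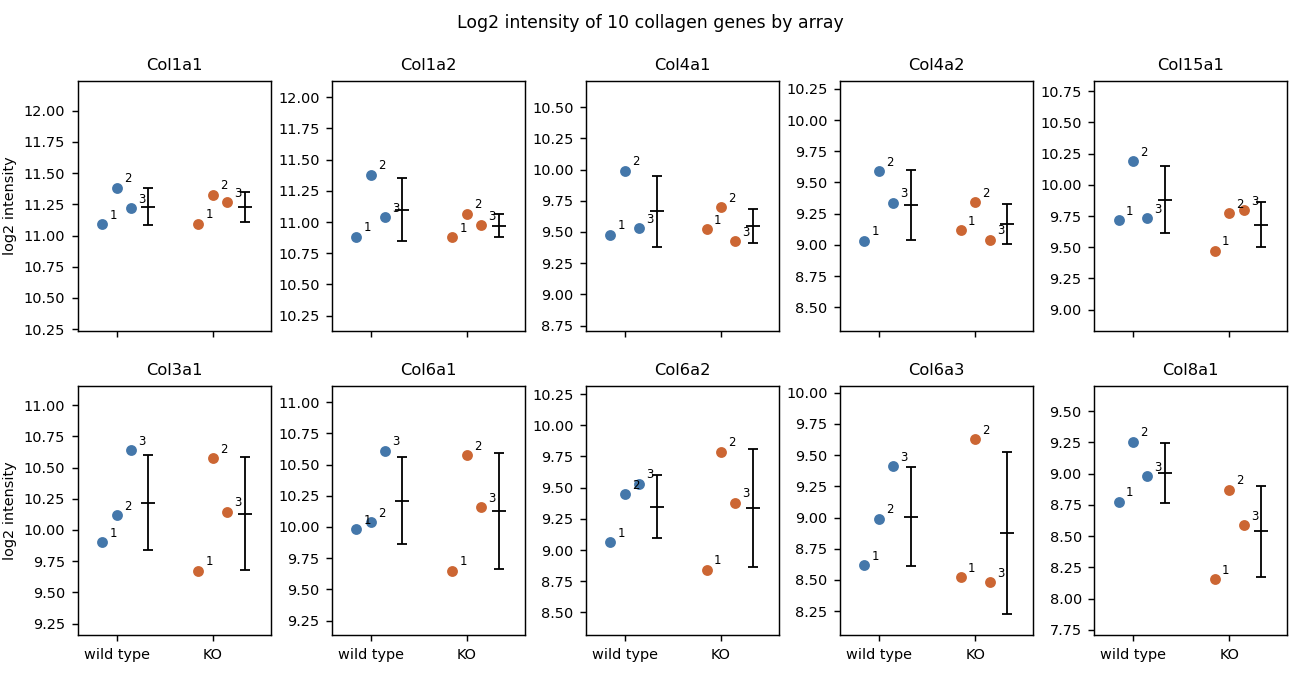
Log2 intensity on the vertical axis of 10 collagen genes in wild type (blue) and KO (orange), with each point an array labelled by its replicate number. Black marks give the mean and SD of 3 arrays, and every panel spans 2 log2 units. Upper panels peak at wild-type replicate 2 in wild type, while Col3a1, Col6a1, Col6a2 and Col6a3 are highest on wild-type replicate 3 and KO replicate 2.

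The 4 transmembrane genes had a median log2 fold change of 0.04, with 1 lower and 3 higher means in KO. Col23a1, the gene of a membrane collagen that can be shed from the surface, read 9.77, 10.47 and 10.10 in wild type against 10.17, 9.98 and 10.23 in KO (0.01 ± 0.19, SE). Col25a1, whose product is needed for motor innervation of muscle, read 7.26, 6.68 and 7.18 in wild type against 7.47, 7.30 and 7.14 in KO. Most of its difference of 0.26 ± 0.18 (SE) came from the low value of wild-type replicate 2, without which it was 0.08. Col13a1, which acts at the neuromuscular junction, stood at -0.09 ± 0.16 (SE), and Col17a1, the gene of a hemidesmosome collagen of skin, at 0.06 ± 0.11 (SE).

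The classes can be set side by side by their scores. The fibrillar score was -0.13, 0.24 and 0.01 in wild type against -0.11, -0.04 and 0.03 in KO, and the basement membrane score was -0.13, 0.10 and 0.08 in wild type against -0.06, 0.06 and -0.04 in KO. The beaded score was -0.25, -0.11 and 0.39 in wild type against -0.47, 0.45 and -0.01 in KO, and the transmembrane score was 0.01, -0.09 and -0.02 in wild type against 0.07, -0.04 and 0.05 in KO. In each of these 4 classes the genotypes overlapped, unlike in the short-chain network class described below, and the means differed by -0.08, -0.03, -0.02 and 0.06. Which arrays were high differed by class: wild-type replicate 2 for fibrillar genes, and wild-type replicate 3 with KO replicate 2 for beaded genes.

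**Figure D3:**
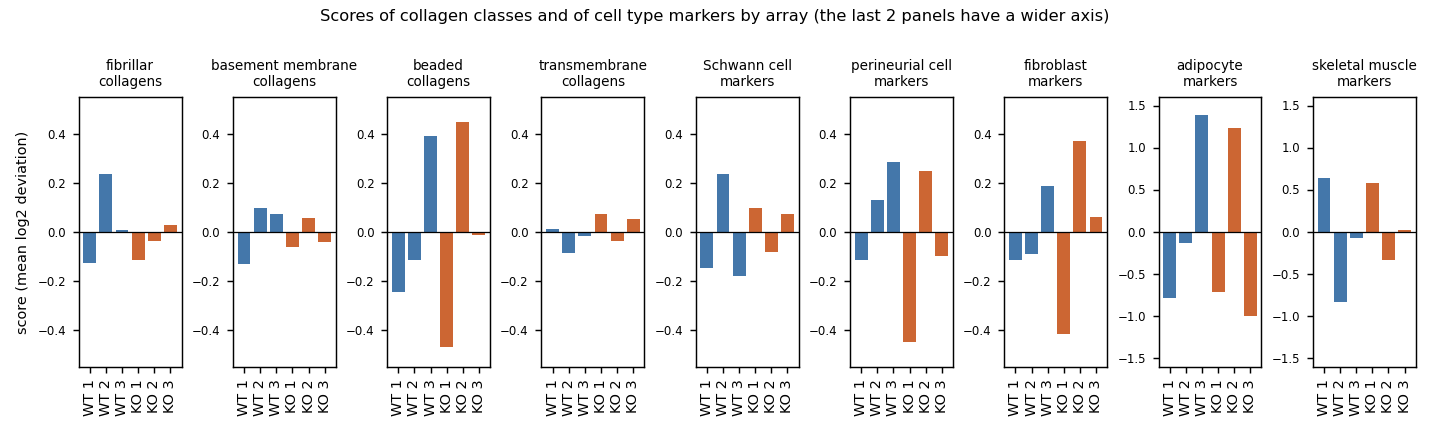
Score of each list (mean log2 deviation from the gene means) on the vertical axis for the 6 arrays (WT, wild type, blue; KO, orange), for 4 collagen classes and 5 marker lists. The beaded panel has its 2 tallest bars, 0.39 and 0.45, on the arrays where adipocyte markers reach 1.39 and 1.24.

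Wild-type replicate 2 was the highest array for 18 of 44 collagen genes (40.9%), against 23.8% of all genes, and for 8 of the 11 fibrillar genes. Besides Col1a1, Col1a2, Col5a1, Col5a2, Col5a3, Col4a1 and Col4a2 these included Col28a1, the gene of a collagen known mainly from peripheral nerve, Col15a1 and Col18a1. The Schwann cell score over 7 of 10 listed markers was also highest on that array, at 0.24, against -0.18 to 0.10 on the others, while the skeletal muscle score was lowest there, at -0.83. Wild-type replicate 3 and KO replicate 2 were the 2 highest arrays for 8 collagen genes (18.2%), against 9.54% of all genes: Col3a1, Col4a4, Col4a5, Col6a1, Col6a2, Col6a3, Col6a5 and Col12a1. These counts were made after the values were seen.

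Marker lists moved on the same arrays. The summed intensity of the 13 measured adipocyte markers ranged from 11164 to 37693 in wild type and from 9359 to 35916 in KO. The fibroblast score over 10 markers was -0.11, -0.09 and 0.19 in wild type against -0.42, 0.37 and 0.06 in KO, with summed intensity from 19363 to 22610.0 and from 18817 to 25962. The perineurial score over 8 markers was -0.11, 0.13 and 0.29 in wild type against -0.45, 0.25 and -0.10 in KO, with summed intensity from 10557 to 14230.2 and from 10316 to 13211. Wild-type replicate 3 and KO replicate 2 were the 2 highest arrays for 3 of the 10 fibroblast markers, Pi16, Dpp4 and Clec3b, and not for the other 7: Dcn, Lum, Mfap5 and Osr2 were highest on KO replicate 3, Pdgfra on KO replicate 2, Sox9 on wild-type replicate 2 and Thy1 on wild-type replicate 1. The part of these tissues in the spread of type III and type VI genes was not tested.

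**Figure D4:**
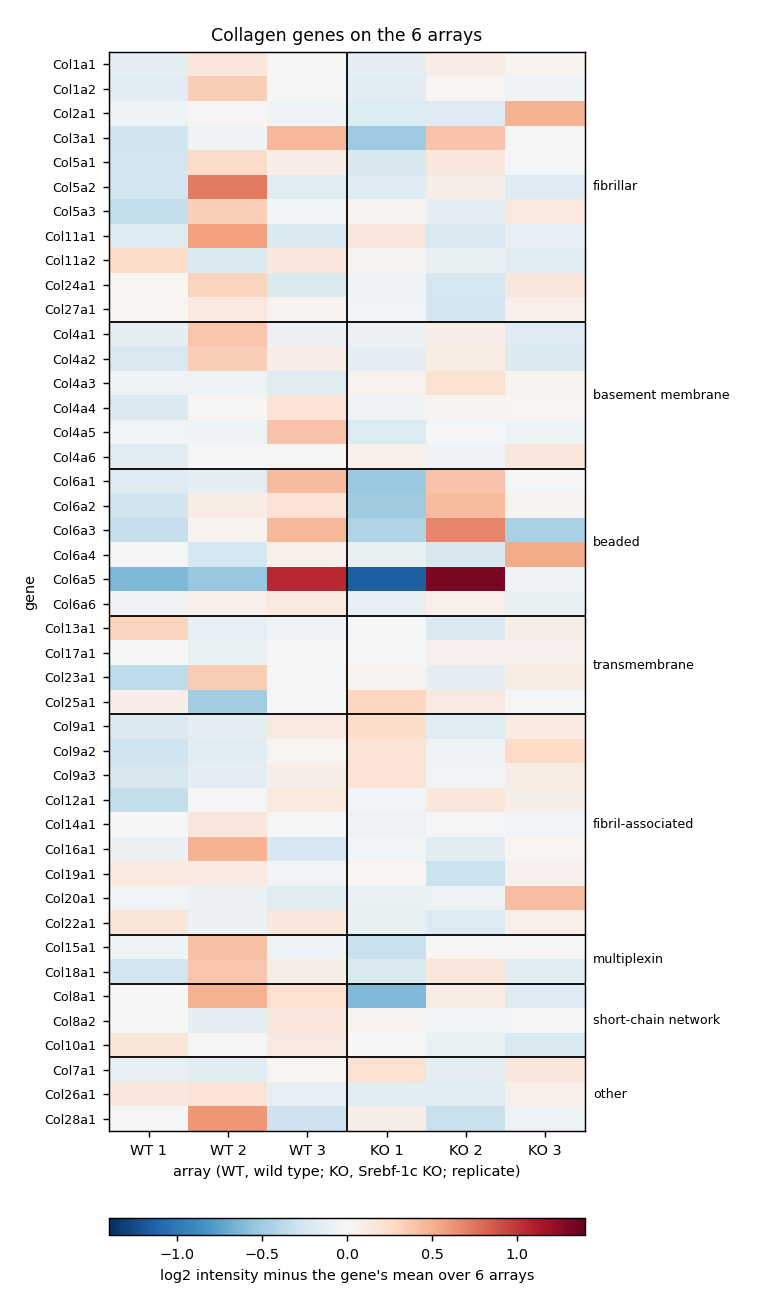
Deviation of log2 intensity from each gene's own mean, as colour, for the 44 collagen genes (rows, by class) on the wild-type (WT) and KO arrays (columns). Red cells gather on WT 2 in the fibrillar rows and on WT 3 and KO 2 in the rows of Col3a1 and of Col6a1, Col6a2, Col6a3 and Col6a5. The average of the 3 short-chain rows, not drawn here, is positive on the WT arrays (0.06 to 0.16) and negative on the KO arrays (-0.19 to -0.0084). Each row taken singly departs from this, as Col8a1 does on KO 2, where it is above its own mean.

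The 3 short-chain network genes all had lower means in KO. Their score was 0.06, 0.12 and 0.16 in wild type against -0.19, -0.0084 and -0.14 in KO. The score did not overlap between the genotypes, with a difference of means of -0.23 that was not tested. Taken singly, each of the 3 genes overlapped, and genotypes did not overlap in 12.3% of all genes. The class held the largest genotype difference of any collagen gene. Col8a1, the gene of a type VIII chain found around vessels and in basement membranes, read 8.78, 9.26 and 8.98 in wild type against 8.15, 8.87 and 8.59 in KO. KO replicates 1 and 3 were lower than any wild-type array, whereas KO replicate 2 exceeded wild-type replicate 1. The log2 fold change was -0.47 ± 0.21 (SE), 0.724 of the wild-type level, with an interval from -0.97 to 0.04 (limma, adjusted p = 0.864). It stood at -0.27 without KO replicate 1 and at -0.63 without KO replicate 2. Pericyte and smooth muscle markers, which are vessel wall genes, scored -0.33, 0.38 and 0.58 in wild type against -0.17, 0.36 and -0.82 in KO over 9 of 9 listed genes, with summed intensity from 14646 to 26968 and from 11962 to 22867. Endothelial markers scored -0.10, 0.09 and 0.34 in wild type against -0.03, 0.15 and -0.46 in KO, with lower means in KO for 8 of 9, and summed intensity from 7287 to 10135 and from 6075 to 9315. Cartilage and tendon markers scored 0.10, 0.01 and 0.28 in wild type against -0.26, 0.02 and -0.15 in KO, also with lower means for 8 of 9, and summed intensity from 1018 to 1387 and from 866 to 1207. Means in KO were lower for 8 of 9 pericyte and smooth muscle markers too, against 56.9% of all genes. The scores of all 3 lists overlapped between the genotypes, for cartilage and tendon narrowly (KO replicate 2 at 0.016, wild-type replicate 2 at 0.014). Taken singly, every KO array was lower for 1 of 9 endothelial markers, Kdr, and 1 of 9 cartilage and tendon markers, Acan. In 12.3% of all genes the genotypes did not overlap. Hapln1 alone in the 3 lists had an unadjusted limma p under 0.05 (0.043, adjusted p = 0.850), against 5.83% of all genes. Several cartilage and tendon markers were dim: Matn3, Hapln1, Matn1 and Acan lay at intensity percentiles of 17.9, 20.2, 20.5 and 25.4 over all genes. The part of these tissues in the short-chain values was not tested. Col8a2 stood at -0.02 ± 0.12 (SE) and Col10a1, the gene of growth plate cartilage collagen, at -0.20 ± 0.12 (SE).

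Both multiplexin genes had lower means in KO. Col15a1, whose product lies at basement membranes of vessels, muscle and nerve, read 9.72, 10.19 and 9.73 in wild type against 9.47, 9.77 and 9.80 in KO (-0.20 ± 0.17, SE). Col18a1, the gene of the collagen from which endostatin is cut, read 8.03, 8.69 and 8.37 in wild type against 8.08, 8.45 and 8.15 in KO (-0.13 ± 0.20, SE). In both the groups overlapped, and neither passed the limma test (adjusted p = 0.905 and 0.952). Both were highest on wild-type replicate 2, without which the log2 fold change was -0.043 for Col15a1 and 0.029 for Col18a1.

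Of the 9 fibril-associated genes, 4 had lower and 5 higher means in KO. The type IX chains, best known from cartilage, stood at 0.13 for Col9a1, 0.27 ± 0.14 (SE) for Col9a2 and 0.17 ± 0.13 (SE) for Col9a3. Col9a2 read 7.68, 7.80 and 7.98 in wild type against 8.14, 7.91 and 8.24 in KO, so 1 KO array lay among the wild-type values (limma, adjusted p = 0.868). Col14a1, which coats type I fibres, read 9.97, 10.14 and 9.96 in wild type against 9.90, 9.95 and 9.94 in KO. Every KO array was lower, but wild-type replicate 3 and KO replicate 2 nearly met, and the difference was -0.09 ± 0.11 (SE). Col12a1, its relative in stretched tissue, stood at 0.12 ± 0.15 (SE), Col16a1 at -0.12, Col19a1 at -0.15, Col20a1 at 0.18 and Col22a1 at -0.15.

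Col28a1 read 7.55, 8.17 and 7.28 in wild type against 7.65, 7.26 and 7.49 in KO (-0.20 ± 0.24, SE). The wild-type mean rested on replicate 2, and without that array the log2 fold change was 0.05. Col7a1, the gene of anchoring fibril collagen, stood at 0.16 ± 0.13 (SE) and Col26a1 at -0.15 ± 0.14 (SE).

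Genes that process and bind collagen gave the same picture. Of 46 listed genes 41 were measured, and 0 of the 41 had an unadjusted p under 0.05 in limma, against 5.83% of all genes; the smallest adjusted p was 0.867. Their median log2 fold change was -0.07, with 29 lower and 12 higher means in KO. Groups did not overlap in 3, against 12.3% of all genes: P4ha1, which hydroxylates prolines so that the helix holds, Mia3, which loads procollagen for export, and Lox, which cross-links fibres.

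Among the hydroxylases P4ha1 read at least 10.87 in wild type and at most 10.81 in KO (-0.16 ± 0.11, SE), and P4ha2 stood at -0.17 ± 0.12 (SE). The lysyl hydroxylase gene Plod2 stood at -0.05 ± 0.13 (SE) and the galactosyltransferase gene Colgalt1 at -0.09 ± 0.13 (SE). Serpinh1, the collagen chaperone of the endoplasmic reticulum, read 9.44, 9.93 and 10.08 in wild type against 9.06, 9.68 and 9.50 in KO. Its difference of -0.40 ± 0.22 (SE) was the lowest in the list, with overlap between the groups. Mia3 read 9.24, 9.39 and 9.47 in wild type against 9.61, 9.50 and 9.51 in KO (0.18 ± 0.12, SE).

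Lox read 11.25, 12.09 and 11.90 in wild type against 12.12, 12.17 and 12.38 in KO. Every KO array was higher, though wild-type replicate 2 came close to the lowest KO array, and the difference was 0.47 ± 0.23 (SE; limma, adjusted p = 0.867). Its relative Loxl4 stood at 0.11 ± 0.14 (SE). The propeptide proteases Bmp1 and Tll1 stood at -0.19 ± 0.28 (SE) and -0.14 ± 0.14 (SE), and the collagen receptors Ddr1 and Lair1 at -0.26 ± 0.14 (SE) and -0.13 ± 0.16 (SE). Over these 12 processing genes, the 2 of each role with the smallest p, the smallest limma adjusted p was 0.867, that of Lox.

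Wild-type replicate 3 and KO replicate 2 were the 2 highest arrays for 11 of the 41 processing genes (26.8%), against 9.54% of all genes. The most uneven was Pcolce2, an enhancer of propeptide removal, with 7.66, 7.46 and 9.82 in wild type against 7.68, 9.88 and 7.61 in KO. Loxl1, Itga11, an integrin chain that binds fibrillar collagen, and the collagen receptor Ddr2 were high on the same arrays. These genes were picked after their values were seen.

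**Figure D5:**
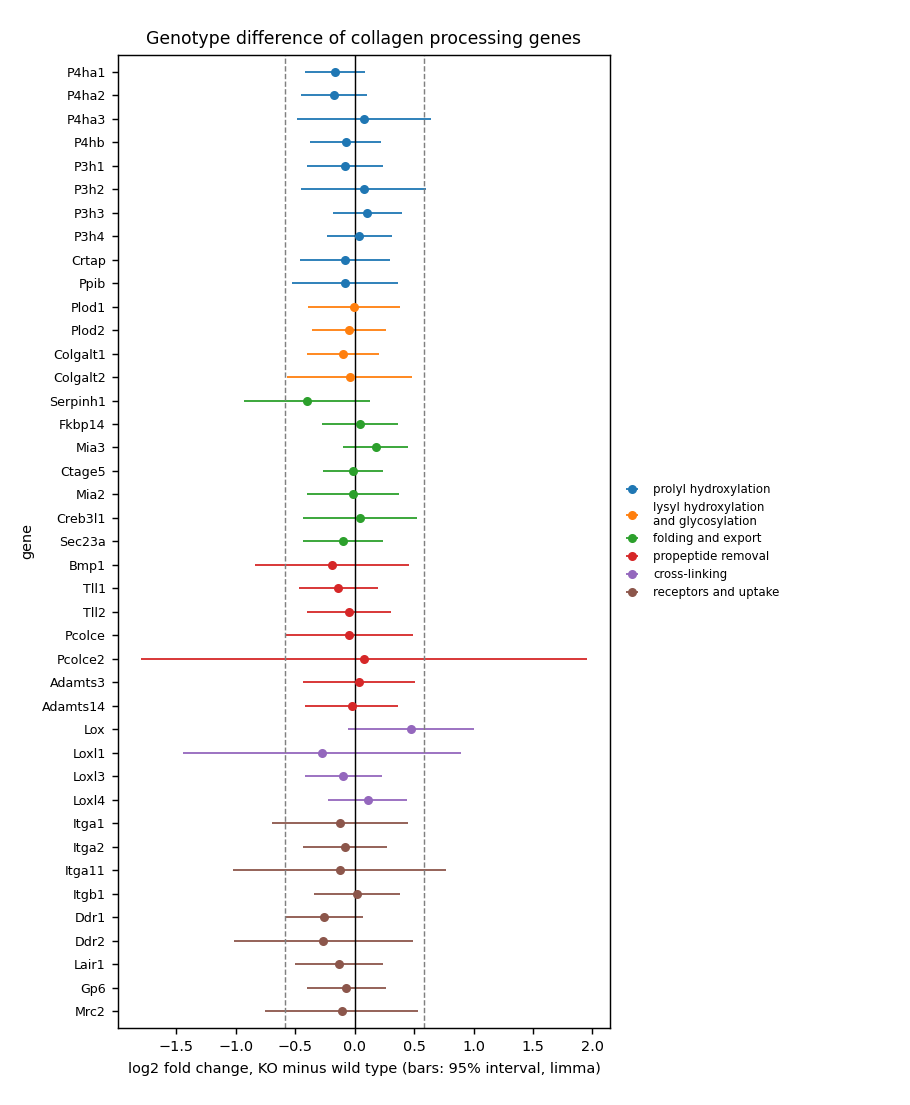
Log2 fold change, KO minus wild type, of 41 collagen processing and receptor genes (vertical axis, coloured by role). Points are limma estimates, bars are 95% intervals and dashed lines mark 1.5-fold. All bars cross 0; Lox is farthest to the right at 0.47 and Serpinh1 farthest to the left at -0.40.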

How the data were processed

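Each deposited value is the intensity of a probe set, made by the authors with the Robust Multichip Average in TAC and Partek Genomic Suite, per the series' design text. A linear scale was read from their range, 3.67 to 23738. The submitters' processing notes name the build mm8; neither program's version is given in the sources used here. Titles and genotype set the groups, although wild type is entered as the source of the KO samples.

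Log2 was taken without a pseudocount. Of 41077 probe sets, 23521 carried 1 gene symbol in the platform annotation, and the brightest over the 6 arrays stood for a gene, which left 22180 genes with no filter on dim ones. Of the 44 collagen genes, 18 lay in the dimmer 50%. Limma 3.58.1 in R 4.3.3 was fitted on all genes as KO minus wild type (two-sided, Benjamini-Hochberg) and was checked on simulated arrays. Errors marked SE and 95% intervals come from this fit. Joins and plots used Python 3.11.15 with pandas 2.3.3 and matplotlib 3.10.9.

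Members, classes and lists were chosen with earlier results of these data known, so no list was tested as a set. All members could be named, with errors for members with an unadjusted p under 0.05, for the 2 of each class with the smallest p and for 13 chains of nerve sheaths, and of the processing genes for the 2 of each role with the smallest p; other processing genes, other than those without overlap, are named as picked later, and single markers were added after their values were seen. Errors are also given for Col5a3, Col6a5, Col8a2, Col12a1, Col14a1, Col17a1 and Col23a1, which fall outside these choices. Promoters are RefSeq's for GRCm38.p6, and no coordinates of probe sets are given. The other settings tried were the methods' ANOVA, array weights, a replicate block, a robust prior with an intensity trend, filters on the dimmest 25% or 50% of genes, renewed quantile normalization, arrays at 1 median, the mean of a gene's probe sets, a pseudocount of 16, the adipocyte or muscle score as a covariate, and each array left out.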

Additional observations from a re-analysis of the deposited data

How the results depend on the processing

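No collagen gene reached an adjusted p of 0.05 in any of the 12 other settings on all arrays or the 6 without 1 array. At an unadjusted p under 0.05 the count was 0 in 11 of these 18 settings and 1 in the other 7. The 1 gene was Col8a1 with the replicate block, array weights, arrays at 1 median, the muscle score as a covariate, without wild-type replicate 1 or without KO replicate 2, and Col4a3 with the methods' ANOVA; all limma adjusted p of Col8a1 were at least 0.657. Same-numbered arrays did not deviate together (r = 0.117, 0.0117 and -0.233 over genes), so the numbers were not taken as pairs. Without 1 array the count ranged from 0 to 1, and the fibrillar median ranged from -0.17 to 0.051, the latter without wild-type replicate 2. The beaded median ranged from -0.27 to 0.18 and the basement membrane median from -0.15 to 0.028, both turning sign, and the transmembrane median from 0.0052 to 0.063. The beaded median was also positive with the adipocyte (0.038) or muscle (0.020) score as a covariate. The adjusted p of Srebf1 was above 0.05 with the replicate block (0.713), the methods' ANOVA (0.308), arrays at 1 median (0.0502), the adipocyte (0.168) or muscle (0.228) score, and without any 1 array (0.255 to 0.764), at log2 fold changes from -1.57 to -1.47. Over 27 collagen genes, 8 of 314 values on all arrays had the other sign. With the adipocyte score as a covariate these were Col1a1 (0.012), Col3a1 (0.0098), Col6a1 (0.0087), Col6a2 (0.065) and Col6a3 (0.011), with the muscle score Col1a1 (0.035) and Col6a2 (0.072), and after quantile normalization Col6a2 (0.025). Without 1 array the sign turned for 13 genes: Col1a1 ranged from -0.073 to 0.074, Col1a2 from -0.24 to 0.013, Col3a1 from -0.31 to 0.14, Col5a1 from -0.21 to 0.051, Col5a2 from -0.37 to 0.12, Col4a1 from -0.21 to 0.046, Col6a1 from -0.31 to 0.15, Col6a2 from -0.24 to 0.24, Col6a3 from -0.50 to 0.073, Col6a4 from -0.11 to 0.27, Col13a1 from -0.17 to 0.043, Col18a1 from -0.30 to 0.029 and Col28a1 from -0.39 to 0.054. The cause was not tested. Bringing arrays to 1 median moved the median of all genes by -0.05. The filter on the dimmest 50% left 26 collagen genes.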
